A study of Caenorhabditis elegans with 2 samples.

Results

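The genes described here encode the proteins of the mitochondrial ribosome of *Caenorhabditis elegans*. They are the 66 protein-coding genes named *mrpl-* or *mrps-* plus a number in Ensembl release 115, out of 19973 nuclear protein-coding genes, with 41 named for the large subunit and 25 for the small subunit. They were chosen by name only, and for each gene the strongest region of SKN-1 signal was taken from 3 region lists on the ce11 assembly. A region counted for a gene when its summit fell in the promoter window, the 1000 bp before the annotated gene start and the 500 bp after it. The lists came from chromatin immunoprecipitation and sequencing of eGFP-tagged SKN-1 in whole L4 larvae of mixed sex, in 2 biological replicates that form 1 group. All worms were of strain OP342, which carries the *unc-119(ed3)* mutation on chromosome III and the transgene wgIs342 that supplies tagged SKN-1. No untagged worms and no other condition are among the samples used here, so no test compares conditions and the values below are descriptions.

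Mitochondria keep their own ribosomes, which translate the few proteins encoded by mitochondrial DNA, parts of the respiratory chain and ATP synthase. The proteins of these ribosomes are encoded in the nucleus, made in the cytosol and imported. Some have counterparts in bacterial ribosomes and others are found only in mitochondria. In worms, lowering *mrps-5* by RNA interference is known to extend lifespan and to induce the mitochondrial unfolded protein response. SKN-1, the worm relative of the mammalian Nrf transcription factors, is best known for activating stress and detoxification genes.

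The strongest region near these genes ranked 512 in the pooled list, outside the authors' thresholded list. The pooled list holds 29768 regions, peaks and background together, and the authors' thresholded list holds its 97 strongest regions, none with a signal value below 29.05. Signal values are the authors' own, have no stated scale and are compared only within a list. Ranks are counted within a list from the strongest region. The strongest pooled region in any of the 66 windows, at *mrpl-9*, had a signal of 20.7 and rank 512, and 288 protein-coding genes had a stronger region in their window. Of the 66 windows, 0 held a thresholded peak, against 0.371% of all protein-coding genes. A count of 0 of 66 allows a share of up to 4.55% (3 counts of the total, counting error only).

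Regions of any strength were common at these genes, in lists where they are common at all genes. In the pooled list 39 of 66 windows held a region (59.1%), against 41.7% of all protein-coding genes. In replicate 1 the count was 37 (56.1%, against 42.0%) and in replicate 2 it was 38 (57.6%, against 41.6%). The signal of these regions was close to that at all genes with a region. The median signal over the 39 genes was 10.1 in the pooled list, against 10.2 over the 8325 protein-coding genes with a region. In replicate 1 the medians were 5.23 and 5.50, and in replicate 2 they were 6.19 and 6.07. The highest signals at these genes were 20.7, 9.62 and 11.7 in the pooled list, replicate 1 and replicate 2. The highest over all genes were 80.4, 57.6 and 26.4, but over 8325, 8388 and 8299 genes with a region. A maximum tends to rise with the number of genes, so these values are not a comparison of strength.

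The share of genes depended on how strong a region had to be. Among the 1000 strongest pooled regions the count was 1 of 66 (1.52%, against 2.48% of all genes), and among the 5000 strongest it was 10 (15.2%, against 9.46%). Among the 10000 strongest it was 15 (22.7%, against 17.2%). Replicate 1 gave 0 genes at the first limit (against 2.48%), 5 at the second (7.58%, against 9.57%) and 13 at the third (19.7%, against 17.1%). Replicate 2 gave 1 (1.52%, against 1.98%), 10 (15.2%, against 8.67%) and 15 (22.7%, against 16.5%). At the 1000 strongest regions the share was below that of all genes in each list. At the 5000 strongest it was above that of all genes in replicate 2 and below it in replicate 1.

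**Figure D1:**
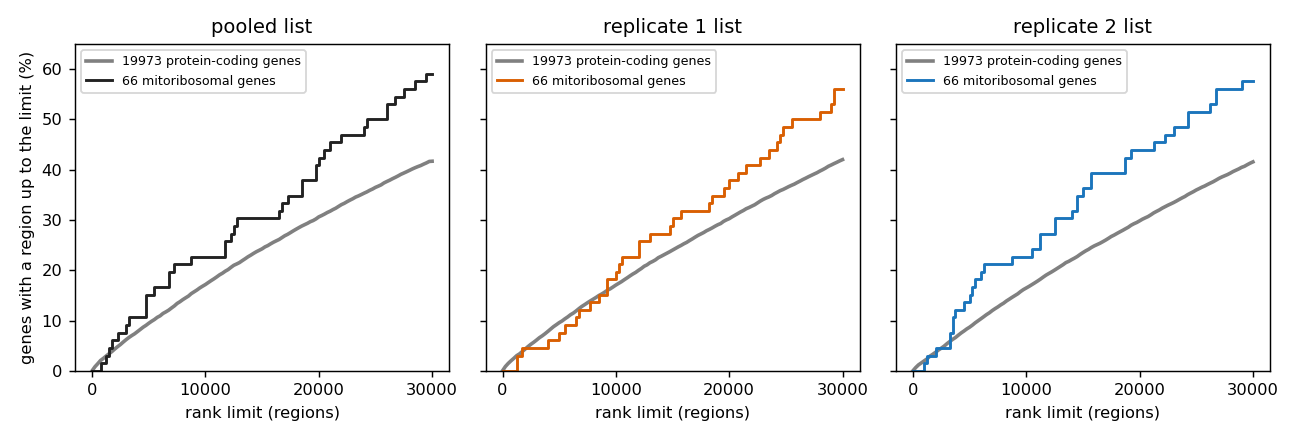
Share of genes (y axis, %) whose strongest promoter-window region ranks within the limit on the x axis (number of regions, strongest first), for the 66 mitochondrial ribosomal protein genes (black, orange and blue steps) and all 19973 protein-coding genes (grey), in the pooled list and each replicate's list. The stepped line starts below the grey one and ends above it, at 59.1%, 56.1% and 57.6% against 41.7%, 42.0% and 41.6%.

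The sequences under the summits are shown for 5 of the leading genes, to set their bases beside the SKN-1 site. Each runs 100 bp to each side of the pooled summit in the RefSeq WBcel235 genome, the same assembly as ce11, and is written 5′ to 3′ on the strand of the gene. Capitals mark TATCAT or TGTCAT, the core of the SKN-1 site, on either strand (ATGATA or ATGACA when it lies on the other strand). The window of *mrpl-22* is chrIII:10615534-10615734 (plus strand), all of it coding sequence. That of *mrpl-55* is chrIV:444065-444265 (plus strand), in an intron of the gene. That of *mrpl-39* is chrV:1821030-1821230 (plus strand), inside the neighbouring gene *gly-7*. Those of *mrpl-45* and *mrpl-21* are chrIII:1201568-1201768 and chrIII:4243407-4243607 (both minus strand), each partly in the coding sequence of the gene itself.
mrpl-22: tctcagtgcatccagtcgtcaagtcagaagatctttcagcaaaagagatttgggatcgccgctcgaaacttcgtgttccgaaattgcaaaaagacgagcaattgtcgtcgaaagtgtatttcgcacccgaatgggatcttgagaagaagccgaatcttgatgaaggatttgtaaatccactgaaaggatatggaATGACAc
mrpl-55: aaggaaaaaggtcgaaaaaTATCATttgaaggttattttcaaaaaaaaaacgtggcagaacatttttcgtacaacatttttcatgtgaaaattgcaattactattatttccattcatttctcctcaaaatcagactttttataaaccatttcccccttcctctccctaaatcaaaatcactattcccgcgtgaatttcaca
mrpl-39: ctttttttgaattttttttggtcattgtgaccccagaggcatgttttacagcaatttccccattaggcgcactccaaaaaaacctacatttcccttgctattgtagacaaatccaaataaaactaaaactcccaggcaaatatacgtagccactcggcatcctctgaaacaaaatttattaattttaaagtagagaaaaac
mrpl-45: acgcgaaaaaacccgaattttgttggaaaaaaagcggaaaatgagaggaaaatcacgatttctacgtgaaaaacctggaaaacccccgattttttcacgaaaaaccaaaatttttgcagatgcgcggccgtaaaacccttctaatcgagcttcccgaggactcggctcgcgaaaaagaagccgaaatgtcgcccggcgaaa
mrpl-21: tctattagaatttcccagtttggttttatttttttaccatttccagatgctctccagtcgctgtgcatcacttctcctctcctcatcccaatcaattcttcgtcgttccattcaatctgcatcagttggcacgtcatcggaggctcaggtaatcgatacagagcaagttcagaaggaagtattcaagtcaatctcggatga

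The full SKN-1 site, the core preceded by 2 bases that are each A or T, lay in 1 of the 5 windows shown, that of *mrpl-55*. Over the 39 genes with a pooled region it lay in the same 1 window (2.56%). The share was 9.09% over the strongest regions of all protein-coding genes and 9.35% over all 29768 pooled regions, in windows of the same length and on both strands. The core, with or without the preceding bases, lay in 12 of the 39 windows (30.8%), against 20.7% over all genes and 21.2% over all pooled regions. This low count did not hold in the replicates' own lists, where the site lay at 3 of 37 genes in replicate 1 (8.11%, against 9.66% of all genes) and at 4 of 38 in replicate 2 (10.5%, against 830 of 8299 genes). With 200 bp searched to each side of the pooled summit it was found at 5 of the 39 genes (12.8%, against 18.7%). GC content of the 39 windows ran from 22.9 to 46.3% with a median of 36.3%, against a median of 37.3% over all genes. All but 4 pooled summits were the midpoint of their region, so they place the signal only within the region's width of 390 bp.

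Of the large-subunit proteins with a bacterial counterpart, 18 of 25 genes had a pooled region (72.0%, against 41.7% of all genes). The counts were 16 in replicate 1 (64.0%, against 42.0%) and 15 in replicate 2 (60.0%, against 41.6%). The leading region of all 66 genes was that at *mrpl-9* (WBGene00015025, chromosome I, 10732543 to 10733666, minus strand). It spanned 10734398 to 10734787 with a summit 927 bp upstream of the start, near the edge of the window. The summit lay in the coding sequence of the divergent neighbour *kin-3*, the catalytic subunit of casein kinase II, 571 bp from the start of *kin-3*. Replicate 1 had a signal of 4.59 (rank 20655) in the *mrpl-9* window and replicate 2 had no region there. A replicate 2 region with its summit outside the window overlapped the pooled one at rank 10665. The pooled list thus ranked this region far above the list of either replicate.

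The next in this class was *mrpl-22* (WBGene00012645, chromosome III), whose product is related to a protein that lines the exit tunnel of the bacterial ribosome. Its pooled region, at 10615439 to 10615828, had a signal of 17.8 (rank 1092) and a summit 168 bp downstream of the start, in the gene's own coding sequence. Replicate 1 had a signal of 5.61 (rank 11861) at 107 bp downstream, and replicate 2 listed none. As at *mrpl-9*, the pooled rank was much higher than that in the replicate that listed the region. At *mrpl-21*, also on chromosome III, the pooled signal was 13.2 (rank 4683) at 54 bp downstream of the start, in its own coding sequence. There too replicate 1 was weak, with 4.26 (rank 24400) at 293 bp upstream, and replicate 2 had none.

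The genes *mrpl-34* (WBGene00007712) and *mrpl-17* (WBGene00021829), both on chromosome I, had their higher ranks in replicate 1. The pooled region of *mrpl-34*, at 10193480 to 10193869, had a signal of 13.3 (rank 4591) and a summit 433 bp downstream of the start, in the gene's coding sequence. Replicate 1 had a signal of 8.98 (rank 1698) at 461 bp downstream and replicate 2 a signal of 6.98 (rank 8645) at 320 bp downstream. It was the single gene of the 66 whose pooled region overlapped a region among the 10000 strongest of each replicate (1.52%, against 3.26% of all genes). The pooled region of *mrpl-17*, at 3162456 to 3162845, had a signal of 12.8 (rank 5449) and lay 162 bp upstream of the start, between *mrpl-17* and the divergent *vbh-1*, an RNA helicase gene. A replicate 1 region at rank 5916 overlapped it. The strongest replicate 1 region in the window was elsewhere, 822 bp upstream (signal 9.57, rank 1237), and the strongest replicate 2 region was 309 bp downstream (6.42, rank 11183).

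At *mrpl-36* (chromosome III) the pooled signal was 12.1 (rank 6692) at 830 bp upstream, between genes, with 4.66 (rank 19830) in replicate 1 and none in replicate 2. At *mrpl-32* (WBGene00016249, chromosome III) the pooled signal was 10.1 (rank 12668) at 891 bp upstream. This region was the second strongest of the 66 genes in replicate 2, with a signal of 11.0 (rank 1107), and replicate 1 listed none. Its summit lay in the coding sequence of *rpn-3*, a proteasome regulatory subunit gene on the same strand. Replicate 2 also ranked *mrpl-13* (9.10, rank 3026) and *mrpl-20* (8.97, rank 3245) among its 5 highest of these genes. The pooled region of *mrpl-13* was weak (7.42, rank 26629) and replicate 1 had none. At *mrpl-20* the pooled list had none, and replicate 1 had 5.12 (rank 15620) at 934 bp upstream, far from the replicate 2 summit at 54 bp downstream. The genes of the stalk that receives translation factors, *mrpl-10*, *mrpl-11* and *mrpl-12*, had weak pooled regions of 8.54, 8.53 and 8.33 (ranks 19664, 19775 and 20855). Their ranks were higher in single replicates. Replicate 2 had 7.73 (rank 5954) at *mrpl-10*, where replicate 1 had none. At *mrpl-11* replicate 2 had 8.13 (rank 4969) and replicate 1 had 5.97 (rank 9755), and at *mrpl-12* replicate 1 alone had a region (6.21, rank 8488).

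Of the large-subunit proteins found only in mitochondria, 7 of 16 genes had a pooled region (43.8%, near the 41.7% of all genes). The counts were 9 in replicate 1 (56.2%, against 42.0%) and 6 in replicate 2 (37.5%, against 41.6%). The strongest was in an intron of *mrpl-55* (WBGene00022045, chromosome IV), at 443970 to 444359, with a signal of 16.8 (rank 1493) and a summit 180 bp downstream of the start. Replicate 1 had a signal of 4.19 (rank 25273) at 70 bp downstream and replicate 2 had none. This is the region that holds the full SKN-1 site printed above. The region of *mrpl-39* (WBGene00044344, chromosome V), at 1820935 to 1821324, had a signal of 16.6 (rank 1586) and came from replicate 2. Its summit was 449 bp upstream of *mrpl-39* and 193 bp inside the start of the divergent *gly-7*, a glycosyltransferase gene. Replicate 2 had a signal of 10.1 (rank 1805) at 444 bp upstream, and replicate 1 had no region in the window or overlapping the pooled one.

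At *mrpl-45* and *mrpl-48* the strongest region of each replicate lay at a different place, while regions of both replicates overlapped the pooled one. For *mrpl-45* (WBGene00022493, chromosome III), whose mammalian relative sits near the exit tunnel, the pooled region at 1201473 to 1201862 had a signal of 14.7 (rank 2821) and a summit 340 bp downstream of the start, within an intron. Replicate 1 was strongest at 343 bp upstream (6.64, rank 6643) and replicate 2 at 345 bp downstream (5.86, rank 14299). A weaker replicate 1 region, at rank 9064, overlapped the pooled one. For *mrpl-48* (WBGene00016989, chromosome V), the pooled region at 5593280 to 5593669 had a signal of 14.5 (rank 3040) and a summit 231 bp upstream, in the coding sequence of *vps-37*, a gene of the ESCRT sorting machinery. Replicate 1 was strongest at 657 bp upstream (7.17, rank 4900) and replicate 2 at 301 bp downstream (8.88, rank 3381). It was the single gene of the 66 among the 5000 strongest regions of each replicate (1.52%, against 2.18% of all genes), through 2 regions that did not overlap. Other regions of both replicates, at ranks 5992 and 27701, overlapped the pooled one. At *mrpl-37* (chromosome II) the pooled signal was 12.0 (rank 7012) at 939 bp upstream, in an intron of the divergent *lin-38* and 82 bp from the start of that gene. Replicate 2 had 5.66 (rank 15593) in the *mrpl-37* window and replicate 1 had none there, though a replicate 1 region at rank 6754 with its summit outside the window overlapped the pooled one.

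Of the small-subunit proteins with a bacterial counterpart, 9 of 15 genes had a pooled region (60.0%, against 41.7% of all genes). That share was 40.0% in replicate 1 (6 genes, against 42.0%), and replicate 2 had a region at 12 of the 15 (against 41.6%). This class was therefore near the share of all genes in replicate 1 and above it in replicate 2. The strongest pooled region, at *mrps-6* (WBGene00020037, chromosome I, 4175421 to 4175810), had a signal of 13.3 (rank 4534) and a summit 842 bp upstream. The summit lay in the coding sequence of the divergent *rpn-8*, a proteasome subunit gene, 297 bp from its start. Within the *mrps-6* window the replicates gave 4.70 (rank 19467) at 648 bp upstream and 4.82 (rank 22051) at 384 bp downstream. A replicate 1 region at rank 491 overlapped the pooled one, with its summit outside the *mrps-6* window. The region that led replicate 1 at this place therefore did not count for *mrps-6*.

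At *mrps-7* (chromosome IV), related to a protein of the head of the bacterial small subunit, the pooled signal was 12.2 (rank 6538) between genes, 409 bp upstream of *mrps-7* and 62 bp from the start of *Y57G11C.3*. Replicate 1 had 4.82 (rank 18363) and replicate 2 had 4.33 (rank 26604). At *mrps-17* (chromosome III) the pooled summit was 82 bp upstream of the start, with a signal of 11.3 (rank 8677). Replicate 1 had its region 81 bp upstream (6.10, rank 9047) and replicate 2 at 487 bp upstream (4.32, rank 26708). So the region close to the *mrps-17* start was seen in replicate 1 only. For *mrps-12*, related to a protein of the decoding centre, the pooled signal was 10.4 (rank 11723) at 721 bp upstream, and replicate 2 alone listed it (8.85, rank 3434). For *mrps-28* the pooled signal was 10.2 (rank 12186) at 62 bp downstream, with 7.59 (rank 3875) at 839 bp upstream in replicate 1 and 5.22 (rank 18750) at 63 bp downstream in replicate 2.

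Of the small-subunit-named proteins found only in mitochondria, 5 of 10 genes had a pooled region (50.0%, against 41.7% of all genes). The counts were 6 in replicate 1 (60.0%, against 42.0%) and 5 in replicate 2 (50.0%, against 41.6%). The strongest was at *mrps-27* (WBGene00010766, chromosome I, region 14793550 to 14793939), with a pooled signal of 15.6 (rank 2161) and a summit 543 bp upstream. Replicate 2 had its highest value for the 66 genes at this place, 11.7 (rank 806), and replicate 1 listed no region in the window. The start of *mrps-27* lies inside *hinf-1*, and the summit fell in coding sequence of that gene. At *mrps-22* the pooled signal was 10.4 (rank 11696) at 957 bp upstream, and replicate 2 had 8.37 (rank 4392) at 954 bp upstream. That summit lay in the coding sequence of *dap-3*, which encodes another protein of the mitochondrial small subunit. At *mrps-35* the pooled signal was 10.2 (rank 12315) at 42 bp downstream, with 5.47 (rank 12876) in replicate 1 and none in replicate 2. The highest value of the 66 genes in replicate 1 was at *mrps-34* (WBGene00010905, chromosome III), 9.62 (rank 1205) at 121 bp upstream. Replicate 2 had 5.24 (rank 18580) there at 185 bp downstream, and the pooled signal at 129 bp upstream was 9.03 (rank 17200).

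**Figure D2:**
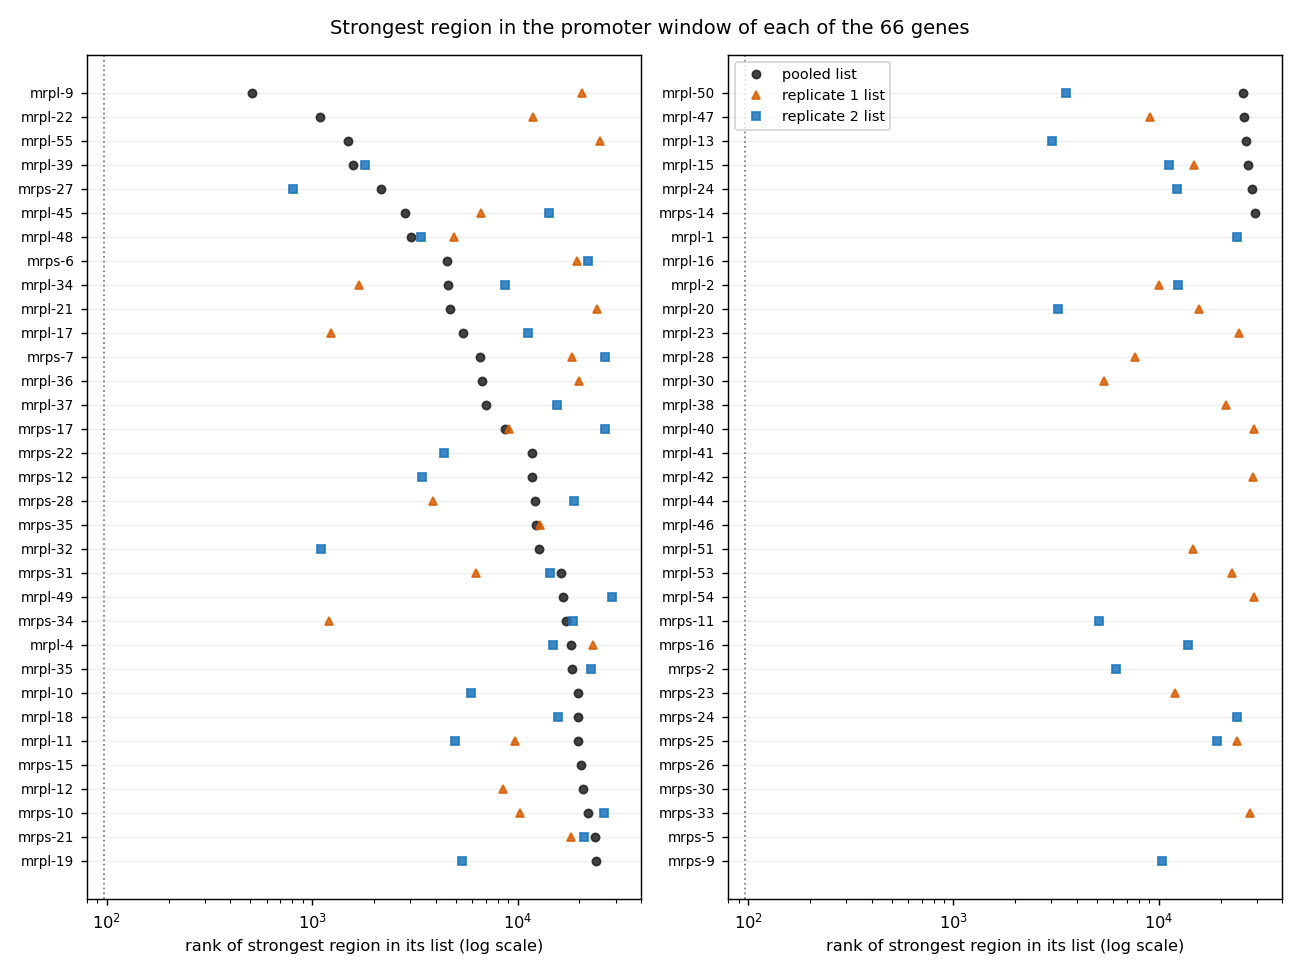
Rank of the strongest promoter-window region (x axis, log scale, strongest to the left) of each of the 66 genes (rows, in the order of pooled rank, then by name) in the pooled list (black circles), replicate 1 (orange triangles) and replicate 2 (blue squares). The dotted line marks rank 97, the end of the authors' thresholded list. All symbols lie to its right, the leftmost at rank 512, and 7 genes have none.

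The strongest regions of the 2 replicates rarely lay at the same spot. Of the 66 genes, 18 had a region in both replicate lists (27.3%, against 20.9% of all genes), 19 in replicate 1 alone (28.8%, against 21.1%) and 20 in replicate 2 alone (30.3%, against 20.7%). Of the 18, the strongest regions of both replicates overlapped by at least 1 bp at 2 genes, *mrpl-34* and *mrps-34*. That is 11.1% of the 18, and 50.3% of the 4167 protein-coding genes with a region in both replicates. Over all genes of each kind, the shares were 3.03% and 10.5%. Taking only regions among the 10000 strongest of each replicate, wherever they lay in the window, left 3 of the 66 genes (4.55%, against 4.74%). The median distance between the replicates' summits was 620 bp at the 18 genes and 315 bp at the 4167.

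Counted from the pooled regions, with an overlap of any strength, the share was close to that of all genes. At 9 of the 66 genes the strongest pooled region overlapped some region of each replicate (13.6%, against 13.0% of all genes). At 0 of 66 it overlapped a region among the 5000 strongest of each replicate, against 1.62% of all genes, and this count allows a share of up to 4.55%. At 3 of 66 it overlapped none of either (4.55%, against 5.11%), namely *mrps-14*, *mrps-15* and *mrps-21*. At 15 genes all 3 lists had a region in the window, whatever its place (22.7%, against 17.4%). The replicates' lists differ in resolution, since regions are 240 bp wide in replicate 1 and 396 bp wide in replicate 2. What part this has in the low overlap was not tested.

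**Figure D3:**
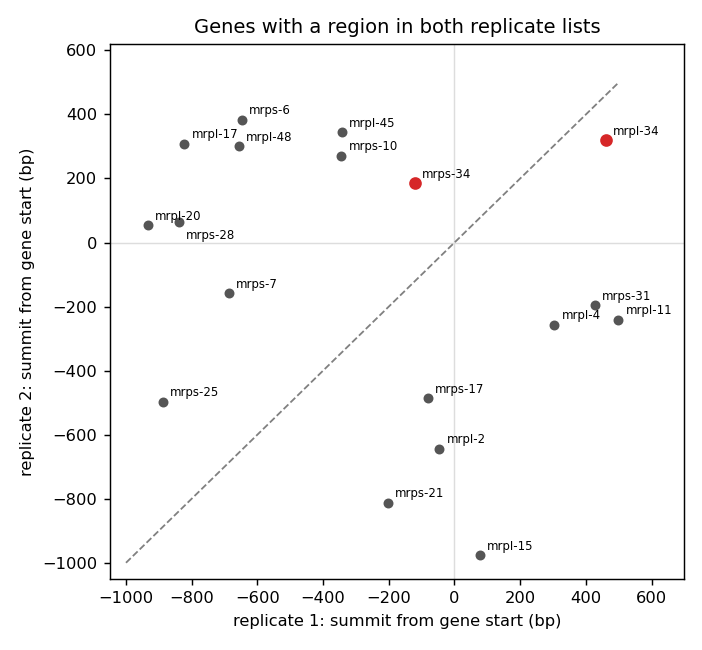
Position of the strongest region's summit relative to the gene start (bp, negative upstream) in replicate 1 (x axis) and replicate 2 (y axis) for the 18 genes with a region in both lists. Points in red are the 2 genes whose regions overlap, and the dashed line marks equal positions. Most points lie far from the line, with a median distance of 620 bp between summits.

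Summits at these genes often lay in coding sequence. Of the 39 strongest pooled regions, 27 had the summit upstream of the start (69.2%, against 66.7% over all genes) and the median position was 183 bp upstream, against 217 bp. The summit was in a coding exon at 18 genes (46.2%, against 27.7%), of which 8 were in the gene itself and 10 in a neighbour. It was between genes at 13 (33.3%, against 46.4%), in a 3′ UTR at 4 (10.3%, against 3.23%) and in an intron at 4 (10.3%, against 17.4%). For 19 genes the summit was also in the promoter window of another protein-coding gene (48.7%, against 27.2%), and for 10 the start of another gene was nearer (25.6%, against 15.8%). Among these 10 were *mrpl-9*, *mrpl-39*, *mrps-6*, *mrps-7*, *mrpl-37* and *mrps-22* of the leading genes.

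The genes sit close to neighbours. By the nearest protein-coding gene upstream, 23 of 66 had a head-to-head gene within 1000 bp (34.8%, against 17.2% of all genes) and 26 had a same-strand gene that ended within 500 bp (39.4%, against 17.7%). A further 5 started inside another gene (7.58%, against 6.96%), and 12 had none of these (18.2%, against 58.1%). A pooled region was found in the window of 18 of the 23 head-to-head genes, 78.3%, where all head-to-head genes gave 49.7%. In the same-strand class it was found at 12 of 26 (46.2%, against 44.9% of all genes of that class). The remaining classes gave 2 of 5 (against 41.8%) and 7 of 12 (against 38.3%). In the class with same-strand neighbours the pooled share was therefore close to that of all such genes. The pooled difference was widest in the head-to-head class and the 12 others. Replicate 1 had a region at 60.9% of the head-to-head genes and replicate 2 at 73.9%. For the 12 others these shares were 83.3% and 41.7%, so they differed between replicates. Shares of all genes by class were taken in the pooled list only. Of the head-to-head genes, *mrps-15* and *asg-1*, a subunit gene of ATP synthase, shared a pooled region of 8.40 (rank 20467) that neither replicate listed. The neighbours *mrpl-1* and *mrps-24* counted the same replicate 2 region (rank 24131), and no pooled region counted for more than 1 of the 66 genes. The pooled summit counted for *mrpl-4* lay in the coding sequence of *mrps-2*, outside the *mrps-2* window.

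**Figure D4:**
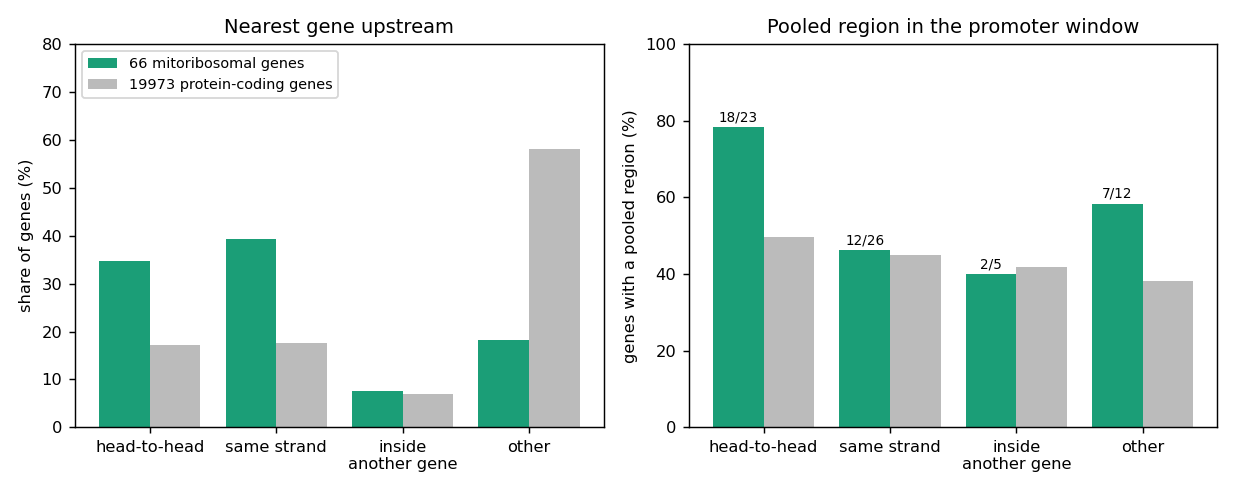
Left, share of genes (y axis, %) by the nearest protein-coding gene upstream, for the 66 genes (green) and all 19973 protein-coding genes (grey). Right, share of each class with a pooled region in the promoter window (y axis, %), with the counts of the 66 genes above the green bars, 18 of 23 head-to-head genes and 12 of 26 with a same-strand gene upstream.

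Worm genes that follow each other closely on one strand are often transcribed together from the promoter of the first, as operons. The annotation used does not mark operons, so a run was defined here by distance alone, from the member back through same-strand genes that each ended within 500 bp of the next start. The 26 members in a run had a median gap of 105 bp to the gene before (25 to 460 bp), and for 19 it was at most 120 bp. The first gene of the run had a pooled region in its window for 19 of the 26 (73.1%), against 49.2% of the 3534 protein-coding genes in such runs. *mrpl-4* and *mrps-2* share the first gene *natc-1*, so these are 18 of 25 distinct first genes (72.0%, against 47.5%). The member itself had a region in 12 (46.2%, against 44.9%), and 22 had one or the other (84.6%, against 69.4%). For 4 members the region at the first gene was among the 5000 strongest (15.4%, against 14.4%), and for 2 of them among the 1000 strongest (7.69%, against 4.30%). At these limits the counts at first genes were small and, among the 5000 strongest, near the share of all such genes. Those 2 were stronger than any region in the windows of the 66 genes themselves. The comparison was added after the values were seen.

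The 3 strongest of these, named after their values were seen, belonged to *mrpl-32*, *mrpl-54* and *mrpl-30*. The window of *rpn-3*, upstream of *mrpl-32*, held a pooled region of 28.3 (rank 111) at 209 bp upstream of the *rpn-3* start. It ranked 84 in replicate 1 (signal 17.7) and 3683 in replicate 2 (8.71), and *mrpl-32* begins 410 bp after *rpn-3* ends. The window of *clsp-1*, upstream of *mrpl-54*, held a region of 27.0 (rank 136), with 20.6 (rank 47) in replicate 1 and 8.90 (rank 3347) in replicate 2. The gap between *clsp-1* and *mrpl-54* was 373 bp, and the *mrpl-54* window itself held no pooled region. At both genes the region was strong in replicate 1 and moderate in replicate 2. For *mrpl-30*, which lies 105 bp after *W04B5.5*, the first-gene region had a pooled signal of 17.0 (rank 1378). Its ranks in the replicates were 943 (signal 10.1) and 810 (signal 11.7), with summits 164 and 355 bp upstream of *W04B5.5*. That made it strong in both replicates, at a start 7234 bp from that of *mrpl-30*. Next came *misc-1*, which encodes a mitochondrial carrier and precedes *mrpl-41*, with a pooled signal of 13.5 (rank 4266).

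**Figure D5:**
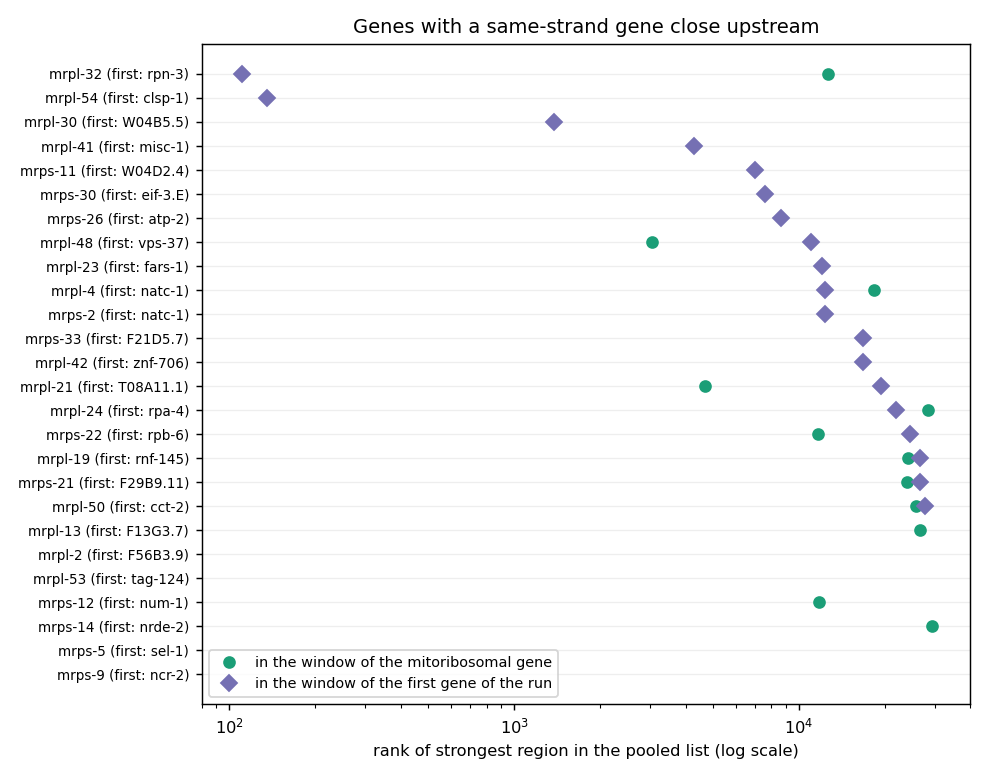
Pooled rank (x axis, log scale, strongest to the left) of the strongest region in the promoter window of each of the 26 genes with a same-strand gene close upstream (green circles) and in that of the first gene of its run (purple diamonds). Rows are in the order of the first gene's rank. The first genes *rpn-3* and *clsp-1* lie at ranks 111 and 136, and the strongest circle, *mrpl-48*, at rank 3040.

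At 7 genes none of the 3 lists had a region in the window: *mrpl-16*, *mrpl-41*, *mrpl-44*, *mrpl-46*, *mrps-5*, *mrps-26* and *mrps-30*. The remaining 59 had one in at least 1 list (89.4%, against 66.7% of all genes). The gene *mrps-5* (WBGene00008452, chromosome V, 12563487 to 12565801, plus strand) follows *sel-1* by 103 bp. The window of *sel-1* was also without a region in each list, and the pooled summit nearest to the *mrps-5* start was 687 bp downstream of it. For the other 6 the nearest pooled summit was 1057 to 2667 bp from the start. By chromosome, pooled regions were found at 11 of 15 genes on I (73.3%, against 44.6% of all genes there), 5 of 10 on II (50.0%, against 41.8%) and 13 of 20 on III (against 47.3%). On IV they were found at 3 of 11 (27.3%, against 39.8%) and on V at 7 of 10 (against 37.2%). The order turned in replicate 1, where IV had 8 of 11 (72.7%, against 40.0%) and V had 4 of 10 (40.0%, against 37.0%). None of the 66 genes is on X.

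Other genes of mitochondrial gene expression were taken as a list for comparison, without a test. They comprise translation factors, tRNA synthetases and proteins of mitochondrial DNA maintenance, transcription and RNA handling, and 26 of 30 symbols were found in the annotation. The list also holds *dap-3*, a mitochondrial ribosomal protein gene outside the naming rule, which had no region in its window in any of the 3 lists. A pooled region lay in the window of 12 of the 26 (46.2%), one of replicate 1 in 11 (42.3%) and one of replicate 2 in 13 (50.0%), beside the 41.7%, 42.0% and 41.6% of all genes. The median pooled signal was 10.2, and 0 had a thresholded peak. The strongest was *mtss-1*, which encodes the mitochondrial single-stranded DNA-binding protein, with a pooled signal of 16.1 (rank 1815) at 783 bp upstream of the start. Replicate 2 ranked it 275 (signal 13.9) at 780 bp upstream, and replicate 1 had 6.11 (rank 9025) at 374 bp upstream. Next were *dars-2*, a mitochondrial aspartyl-tRNA synthetase gene, with 14.2 (rank 3298), and *mma-1*, a relative of mammalian LRPPRC, with 13.3 (rank 4635).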

How the data were processed

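The deposited narrowPeak lists on ce11 were used: the pooled list, the thresholded list and 1 list per replicate. Per the file listing deposited beside the samples, the replicate and pooled lists mix peaks with background, called against a control. Peak caller, aligner and the limit for the thresholded list were not given in the sources used here. Regions were ranked within a list by the deposited signal value (column 7), whose scale the authors do not state. The lists hold no read counts, so depth is unknown and no interval on signal can be given. Each replicate list holds exactly 30000 regions, so presence in it does not mark binding.

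Genes, starts and sequences came from Ensembl release 115 and the RefSeq WBcel235 genome, whose chromosome lengths contain all regions. The outermost gene start was used, and 4 genes named *mrps-18* plus a letter were left out as outside the naming rule. Lists on ce10 were not used. Of 30 symbols of the comparison list 26 matched, 2 of them through RefSeq locus tags. Counts are given beside the same count over all 19973 protein-coding genes, with no test, because members are not replicates and the samples form 1 group. Python 3.11.15 was used, and the window and site searches were tested on simulated data. Genes with full values are the 20 strongest in the pooled list, the 5 strongest in each replicate and *mrps-5*. Sequences were planned for the 6 strongest genes off chromosome I, and 1 whose window overlaps annotated UTR is not printed. Members and lists were chosen with earlier results of these data known.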

Additional observations from a re-analysis of the deposited data

How the results depend on the processing

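No paired analysis was possible because the samples form 1 group. The count of 39 genes with a pooled region stayed within 1.5 times under each of 9 alternatives. It ran from 26 (window of 500 bp upstream to 200 bp downstream) to 52 (2000 bp upstream to 500 bp downstream). It was 30 when a region counted only for the nearest protein-coding start. It was 41 when the 4 lettered *mrps-18* genes were added to the 66, so over a larger total. It was 49 of the 66 when the first gene of a run could count. Both alternatives were chosen after seeing the data. The share of all genes was not recomputed for these windows and start rules. Whether the difference from all genes holds under them was therefore not tested. In the narrower window the counts were 22 in replicate 1, 21 in replicate 2, 3 in all 3 lists, 6 among the 5000 strongest and 6 nearer another start, and the median signal was 9.12. In the wider window they were 29 in all 3 lists, 17 among the 5000 strongest and 21 nearer another start, with 4 SKN-1 sites and a median summit of -776 bp. Counting a region that overlapped the window by 1 bp gave 16 among the 5000 strongest, 2 sites and a median signal of 11.3, and any coding transcript start gave a median signal of 9.21. The count of 15 genes in all 3 lists was replaced by 9 when a region of each replicate had to overlap the pooled one, inside the window or not. It was 5 when the overlap had to be at least 50% of the shorter. The 9 are not a subset of the 15, since *mrpl-9*, *mrpl-37* and *mrpl-50* lacked a window region in 1 replicate. The 10 genes among the 5000 strongest became 1 at the 1000 strongest. No pooled list was rebuilt with 1 replicate left out. The other replicate's own list took its place, so the values are those of replicate 1 and replicate 2 alone. The windows held a region at 37 and 38 genes, as given above. Among the 5000 strongest were 5 and 10 genes, and the site was found at 3 and 4. The median signal was 5.23 and 6.19, on another scale, and the median summit -144 and -222 bp. The start of another gene was nearer at 12 and 9 genes. The count in all 3 lists became 18, but both replicate lists were still required. It is therefore the count of genes with a region in both replicate lists, not a count with 1 replicate left out. In the pooled list the site was found at 5 genes both within 200 bp of the summit and over the whole region. The share of all genes was not computed for the whole region, nor for the overlap of at least 50%. The causes of these shifts were not tested beyond the change of window, list or limit itself. Unknown depth limits all counts.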
